A study of Caenorhabditis elegans with 2 samples.

Results

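The microRNA genes of the Caenorhabditis elegans nuclear genome were examined for summits of zfh-2::GFP chromatin immunoprecipitation peaks, each gene together with the 1000 bp of sequence upstream of its 5' end. All gene rows of the microRNA class in the Ensembl release 115 annotation of WBcel235 were taken, 261 of 46890 nuclear gene rows. The rule used the annotated class and no measured value, but the class was chosen with earlier results of these data known. A gene was called marked when the summit of at least 1 peak, the base the authors' list gives as its highest point, fell between the start of that upstream stretch and the 3' end of the row. The rows had a median length of 95 bp, since most cover the hairpin precursor. A few rows were much longer, with let-7 at 1732 bp, mir-8199 at 778 bp and mir-8209 at 262 bp, and the distance at let-7 is therefore given from the mature sequence.

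ChIP-seq was done with an antibody against GFP in 2 biological replicates of 1 group of worms, so no comparison between conditions was possible and no p-value is given. Both replicates were strain RW12167, whose CRISPR insertion st12167 joins GFP to zfh-2 and brings an unc-119(+) cassette with loxP on either side, in a background with the unc-119(tm4063) III allele. The animals were young adults at 64.5 hours, synchronised by starving hatched L1 larvae after bleaching, and whole worms were used, so a peak cannot be assigned to a tissue. No untagged or input library was analysed here. The conservative list, made from both replicates together, had 7085 nuclear summits, and the replicates' own thresholded lists had 4281 in replicate 1 and 4696 in replicate 2. The replicates' longer ranked lists, which include weaker peaks, had 33033 in replicate 1 and 32103 in replicate 2. The peak lists carry no read counts, so sequencing depth is unknown.

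MicroRNAs are short RNAs cut from hairpin precursors, first by Drosha with Pasha and then by Dicer, and loaded into Argonaute proteins. The loaded complex recognises messenger RNAs mainly through the seed, the bases near the 5' end of the microRNA, and lowers their translation or stability. The worm is where this class was found: lin-4 and let-7 act in the heterochronic pathway, which times larval cell fates. ZFH-2 is a zinc finger homeodomain protein, a kind of transcription factor. MicroRNA genes in the worm lie between protein-coding genes or within their introns, and some are arranged in clusters on one strand.

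Mature sequences are shown for the families described below, because genes that share a seed can be told from genes that share only an upstream peak. They were read from the WBcel235 genome at the mature positions of the RefSeq annotation, which matched 260 of the 261 rows by gene ID. Capitals mark the seed, bases 2 to 8. The first set holds the 4 marked genes of the let-7 family, all with the seed GAGGUAG, mir-793 from its unmarked members, and the lin-4 pair. The unmarked member mir-795, not shown, also carries GAGGUAG.
let-7: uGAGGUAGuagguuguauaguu
mir-48: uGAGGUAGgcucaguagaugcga
mir-84: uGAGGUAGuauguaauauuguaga
mir-241: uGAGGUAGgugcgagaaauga
mir-793: uGAGGUAUcuuaguuagacaga
lin-4: uCCCUGAGaccucaaguguga
mir-237: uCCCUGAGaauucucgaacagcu

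The second set holds the mir-35 family, whose first and last cluster members and mir-42 are shown, and mir-43 and mir-44, which share the cluster of mir-42 but not its seed.
mir-35: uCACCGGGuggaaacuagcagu
mir-41: uCACCGGGugaaaaaucaccua
mir-42: uCACCGGGuuaacaucuacaga
mir-43: uAUCACAGuuuacuugcugucgc
mir-44: uGACUAGAgacacauucagcu

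The third set holds the mir-51 family, in which the seed comes from the 5p arm of mir-51, mir-52 and mir-53 and from the 3p arm of mir-54, mir-55 and mir-56.
mir-51: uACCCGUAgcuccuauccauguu
mir-52: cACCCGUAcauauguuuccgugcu
mir-53: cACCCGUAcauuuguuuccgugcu
mir-54: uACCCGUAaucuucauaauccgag
mir-55: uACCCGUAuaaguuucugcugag
mir-56: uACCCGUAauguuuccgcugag

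The last set holds members of the mir-58 family and the genes with the seed AUGACAC.
mir-58a: uGAGAUCGuucaguacggcaau
mir-80: uGAGAUCAuuaguugaaagccga
mir-81: uGAGAUCAucgugaaagcuagu
mir-229: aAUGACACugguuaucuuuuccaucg
mir-64: uAUGACACugaagcguuaccgaa
mir-66: cAUGACACugauuagggauguga
mir-63: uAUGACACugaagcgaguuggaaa

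In the conservative list 58 of the 261 microRNA genes were marked, which is 22.2% (95% Wilson interval 17.6 to 27.6), beside 12.3% of all other nuclear genes. Clustered genes share peaks, and counted once per cluster or single gene 44 of 227 were marked (19.4%, 14.8 to 25). In their own thresholded lists, replicate 1 marked 53 microRNA genes (20.3%, against 8.84% of other genes) and replicate 2 marked 47 (18%, against 9.15%). Both own lists marked 43 (16.5%, against 7.04% of other genes). The other genes form a mixed set, because piRNA genes, which are many, were marked at 0.781%.

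The share of microRNA genes stood near that of some other classes over the same window. It was 19.5% for protein-coding genes, whose rows are far longer, 20.3% for tRNA genes and 27.7% for snoRNA genes. With the gene body left out of both, 19.2% of microRNA genes had a summit in the 1000 bp upstream, against 7.39% of protein-coding genes. The same upstream comparison gave 18.4% against 5.65% in replicate 1 and 15.7% against 5.14% in replicate 2, so microRNA genes had the higher share in each list. Counted once per cluster or single gene, 36 of 227 (15.9%) had a summit upstream of the first gene in the conservative list.

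**Figure D1:**
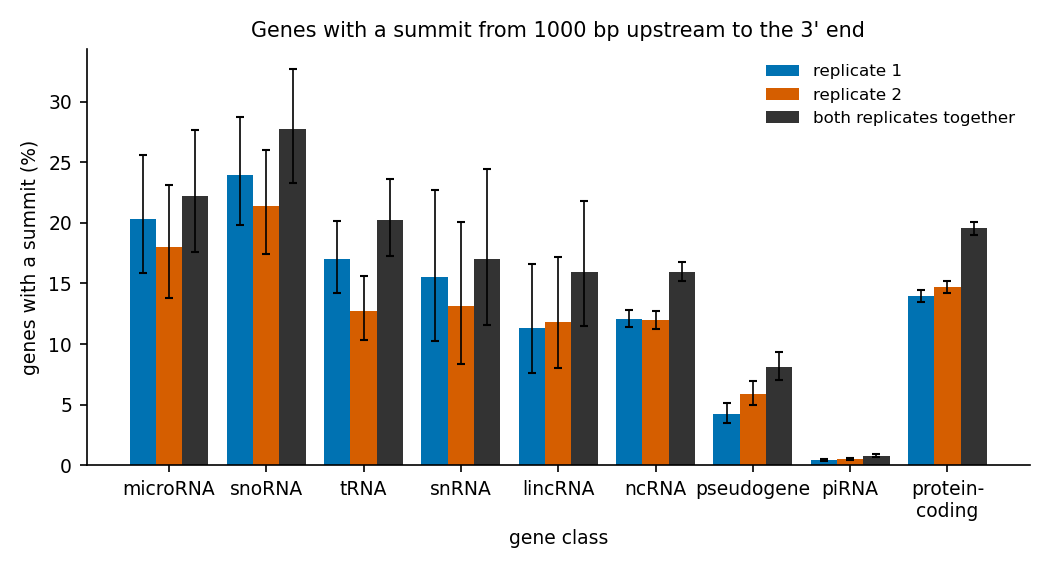
Percentage of genes of each class with a summit from 1000 bp upstream of the 5' end to the 3' end of the row, in the own lists of replicate 1 and replicate 2 and in the conservative list, with 95% Wilson intervals. MicroRNA genes stand at 20.3%, 18% and 22.2%, below snoRNA genes in every list and above piRNA genes.

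The merged microRNA windows covered 255208 bp, or 0.255% of the nuclear genome, and held 52 summits, or 0.734% of the list. That is 20.4 summits per 100 kb in the windows, against 7.07 per 100 kb over the genome. Of the 52 summits, 26 lay in introns of protein-coding genes, 14 between genes, 6 in coding exons and 6 in promoter windows, which reach 1000 bp before and 200 bp past a protein-coding gene's 5' end. Their median signal, the authors' peak height measure, was 138, against 119 over the whole list. The strongest 10% of all summits took in 13 of the 52.

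The 58 marked genes had 42 distinct strongest summits, since neighbouring genes shared peaks. Of the 58, 42 were also marked in both own lists, 7 in that of replicate 1 alone, 2 in that of replicate 2 alone and 7 in neither. The 42 genes found in every thresholded list had 27 distinct strongest summits with a median signal of 234 (range 122 to 569). The other 16 marked genes had 15 distinct strongest summits with a median of 107 (82.8 to 140), so the genes missing from an own list had the weaker peaks. Replicate 1 alone gave mir-1, mir-47, mir-48, mir-1832a, mir-4929, mir-4938 and mir-8187, and replicate 2 alone gave mir-4933 and mir-4936. Neither own list held mir-271, mir-273, mir-2208a, mir-2209b, mir-5546, mir-5548 or mir-8193. For the 27 well supported summits, the replicates' strongest summits lay a median of 20 bp apart, and 23 of the 27 pairs were within 100 bp.

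The position of the summits within the windows was measured next. Each window holds 1000 bp of upstream sequence and a row of median 95 bp. That marked summits lay mostly upstream, and within 1000 bp, is therefore largely set by the rule. The strongest summit of each marked gene was at a median of −355 bp from the 5' end, negative meaning upstream (interquartile range −504 to −210 bp). It was 600 to 100 bp upstream in 37 of the 58 genes (63.8%). These values count a peak shared by clustered genes more than once. For the 44 marked first genes of clusters or single genes, the median was −286 bp. The medians were −352 bp for the 53 genes of replicate 1 and −341 bp for the 47 genes of replicate 2. Marked protein-coding genes, over a window of equal length at their own 5' ends, had a median of −386 bp, and 50.6% lay in that range. The marked tRNA genes had a median of −29 bp, and the snoRNA genes one of −120 bp.

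To count each shared peak once, genes on one strand less than 1000 bp apart were joined, which gave 227 single genes or clusters, and only the strongest summit of each merged peak region was kept. From 400 to 200 bp upstream there were 7.93 summits per 100 first genes of microRNA units (18 summits). The next bins out and in held 3.52 (600 to 400 bp upstream) and 2.2 (200 to 0 bp upstream). Protein-coding genes had 1.14 to 1.7 per 100 genes in every bin. In the conservative list 36 of the 227 units had a summit in the 1000 bp upstream of the first gene and 22 had one in the 1000 bp downstream of the last. The counts were 34 upstream and 18 downstream in replicate 1, and 27 and 15 in replicate 2.

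**Figure D2:**
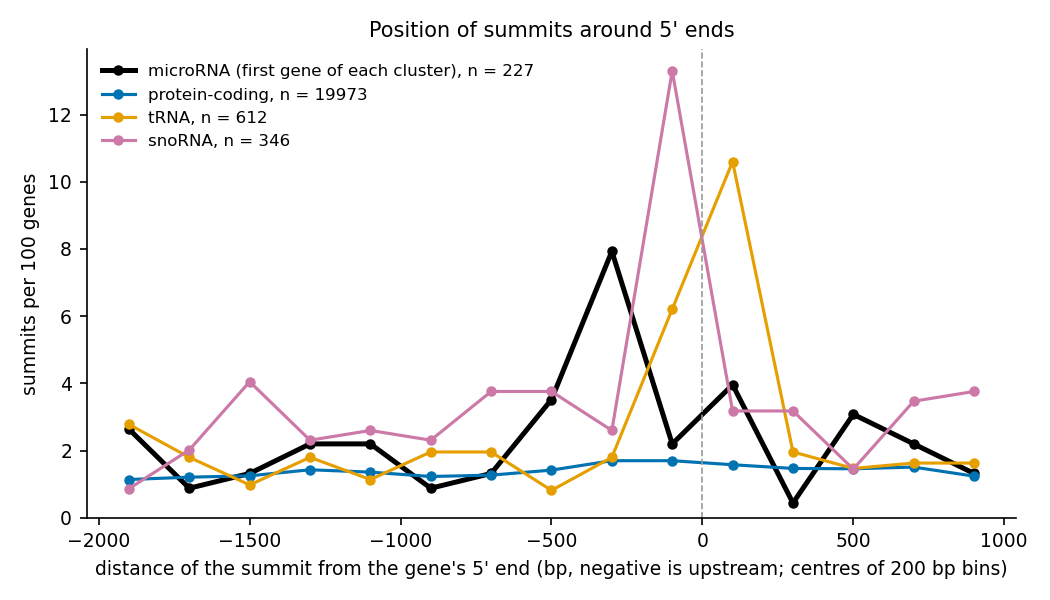
Summits per 100 genes (1 summit per merged peak region, conservative list) in 200 bp bins around the 5' end of the first gene of each microRNA unit, and of snoRNA, tRNA and protein-coding genes; negative distances are upstream. MicroRNA units reach 7.93 per 100 genes 400 to 200 bp upstream, while snoRNA genes have their highest bin just upstream of the 5' end and tRNA genes just downstream of it.

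The strongest peak in any microRNA window lay upstream of the mir-54, mir-55 and mir-56 cluster on chromosome X, on the minus strand, at X:13145315. Its signal was 569 in the conservative list, rank 38 of 7085, with 299 in replicate 1 (rank 59) and 269 in replicate 2 (rank 30). The summit was 221 bp upstream of mir-54, the first gene. The cluster lies inside F09A5.3 on the opposite strand. A second strong summit lay on the other side of the cluster, 421 bp upstream of mir-55b, a gene on the plus strand, with a signal of 546 in the conservative list, 292 in replicate 1 and 252 in replicate 2.

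The stretches around some of the strong family summits are printed below because the GC-rich sequence described later is visible in them. They are not a full set by strength. Those of mir-80 (57.4% GC) and mir-229 (54.5% GC) are not shown, though their signals exceed some that are. The stretches shown have 58.4% to 72.3% GC, against a mean of 57.1% over the 52 summits in microRNA windows. Each is 101 bp of WBcel235, the build called ce11 in the peak lists, from the RefSeq genome, on the strand of the gene, with the summit base and the 5 bases on either side in capitals.
mir-54, X:13145265-13145365, minus strand: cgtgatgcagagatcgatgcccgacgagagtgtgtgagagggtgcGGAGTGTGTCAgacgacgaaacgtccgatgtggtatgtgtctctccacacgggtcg
mir-241, V:14366759-14366859, minus strand: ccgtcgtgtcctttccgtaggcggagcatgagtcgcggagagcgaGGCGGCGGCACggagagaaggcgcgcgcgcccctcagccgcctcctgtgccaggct
mir-52, IV:14033671-14033771, plus strand: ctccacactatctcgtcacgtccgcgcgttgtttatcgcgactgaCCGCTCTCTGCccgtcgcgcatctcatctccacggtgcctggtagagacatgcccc
mir-58a, IV:3232847-3232947, plus strand: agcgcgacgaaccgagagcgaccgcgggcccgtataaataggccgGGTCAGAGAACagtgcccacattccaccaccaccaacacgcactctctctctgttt
lin-4, II:5901811-5901911, plus strand: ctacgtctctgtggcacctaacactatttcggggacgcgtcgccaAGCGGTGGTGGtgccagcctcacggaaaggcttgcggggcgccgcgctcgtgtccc
mir-35, II:11537278-11537378, plus strand: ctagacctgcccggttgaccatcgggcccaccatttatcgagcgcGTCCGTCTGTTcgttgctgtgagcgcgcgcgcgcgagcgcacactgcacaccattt
let-7, X:14744576-14744676, minus strand: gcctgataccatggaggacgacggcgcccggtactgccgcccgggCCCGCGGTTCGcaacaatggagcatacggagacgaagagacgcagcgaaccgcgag

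The mir-51 family, broadly expressed relatives of miR-100, had 4 of its 6 genes marked. Besides the cluster above, mir-52 on chromosome IV had a signal of 385 in the conservative list, 205 in replicate 1 and 182 in replicate 2, with its summit 287 bp upstream. Neither mir-51 nor mir-53, which share the seed, was marked in the conservative list. In its own list, replicate 1 had a peak of signal 127 at 67 bp upstream of mir-51, and replicate 2 had none, even in its ranked list.

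The let-7 family, heterochronic microRNAs that promote later larval and adult fates, had 4 of 7 genes marked. The strongest was mir-241, with a signal of 493 in the conservative list (rank 79), 254 in replicate 1 and 238 in replicate 2, and a summit 526 bp upstream. Its neighbour on chromosome V and fellow family member mir-48 had a signal of 140 in the conservative list and 93.5 in replicate 1, and no summit in the own thresholded list of replicate 2. The mir-84 window had a signal of 230 in the conservative list, 151 in replicate 1 and 75.1 in replicate 2. At let-7 the signal was 234 in the conservative list, 126 in replicate 1 and 108 in replicate 2. Its summit lay 371 bp upstream of the mature sequence, within the long let-7 row, and also in the promoter window of the protein-coding gene C05G5.7. The unmarked members were mir-793, mir-794 and mir-795, and a summit of signal 189 lay 447 bp downstream of the 5' end of mir-794, beyond its 3' end.

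The lin-4 window, which lies inside F59G1.4 on the same strand, had a signal of 313 in the conservative list, 167 in replicate 1 and 149 in replicate 2, with the summit 393 bp upstream. Its seed partner mir-237 was unmarked, with the nearest summit 2049 bp downstream of its 5' end.

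All 8 genes of the mir-35 family, which is needed for embryonic development, were marked, but through only 2 distinct strongest summits. The 7 genes mir-35 to mir-41 shared the summit at II:11537328, which was 280 bp upstream of mir-35 and 980 bp upstream of mir-41. Its signal was 209 in the conservative list, 75.3 in replicate 1 (rank 2762) and 127 in replicate 2 (rank 515). The cluster lies within Y62F5A.9, on the opposite strand. The second cluster, mir-42, mir-43 and mir-44, shared a summit 290 bp upstream of mir-42, with 130 in the conservative list, 82.7 in replicate 1 and 54.5 in replicate 2. The genes mir-43 and mir-44 carry other seeds, and their windows overlap that of mir-42, so a summit there marks all of them.

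**Figure D3:**
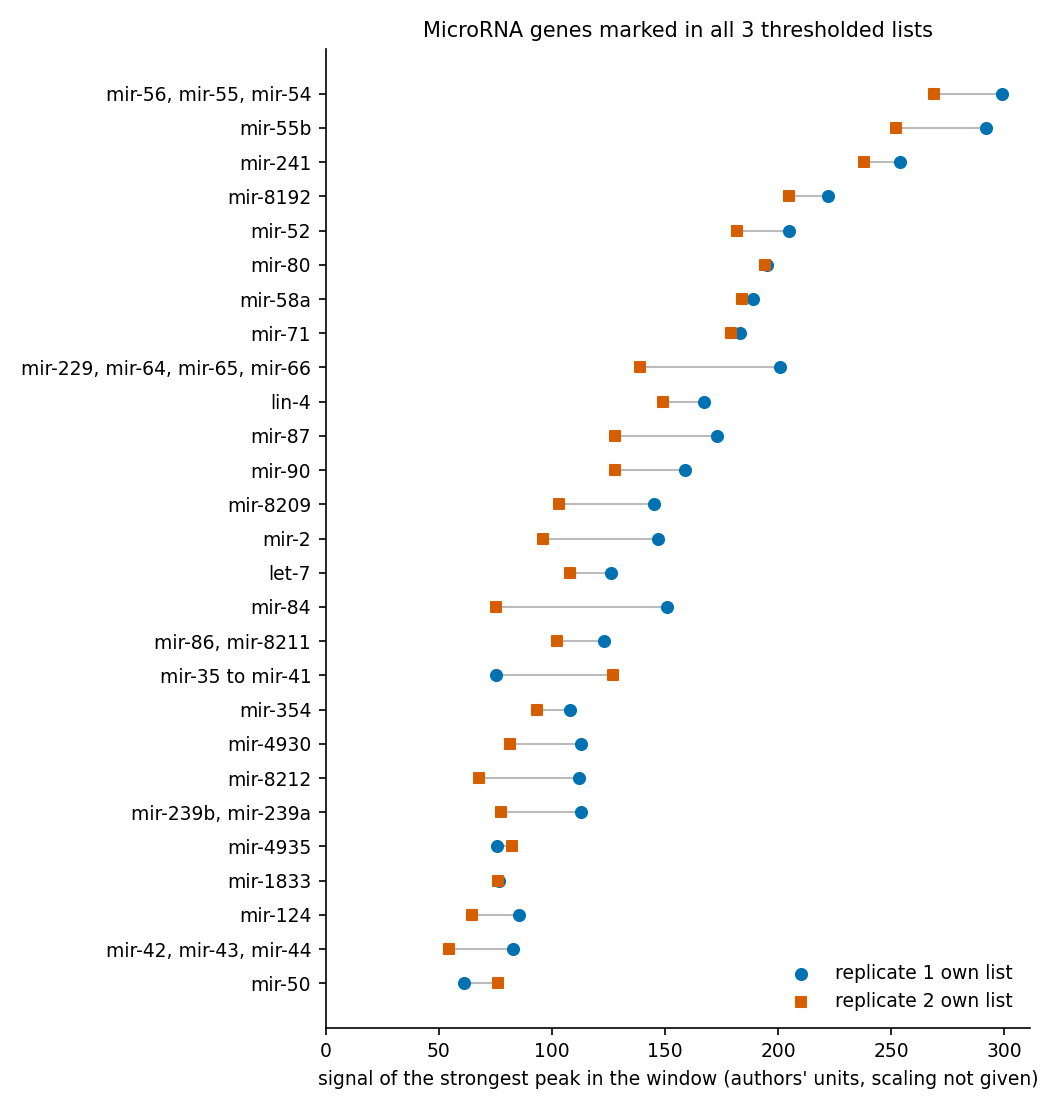
Signal of the strongest peak in the window in the own list of replicate 1 (circles) and of replicate 2 (squares), for the 27 summits of the 42 genes marked in all 3 thresholded lists, ordered by signal in the conservative list. The mir-54 cluster is highest, at 299 in replicate 1 and 269 in replicate 2, and the shared peak of mir-35 to mir-41 is at 75.3 and 127. The scale of the signal is not described, so heights in the lists of the replicates may not be comparable.

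The mir-58 family, abundant worm relatives of bantam, had 3 of 9 genes marked. Of the 6 genes with the seed GAGAUCA, only 1, mir-80, was marked. The other marked members, mir-58a and mir-2209b, carry GAGAUCG and GAGAUGA. The mir-80 peak, 216 bp upstream, had a signal of 383 in the conservative list, 195 in replicate 1 and 194 in replicate 2. The mir-58a peak, 357 bp upstream and inside Y67D8A.2, had 373 in the conservative list, 189 in replicate 1 and 184 in replicate 2. Both peaks were present in each replicate's own thresholded list. The third, mir-2209b, had a weak summit of 82.8, shared with mir-2208a and absent from both own thresholded lists. Of the unmarked members, mir-81 had a summit of 99.8 in the own list of replicate 1 alone, 80 bp upstream, and a strong one of 454 in the conservative list 1531 bp downstream of its 5' end.

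The cluster of mir-229, mir-64, mir-65 and mir-66, inside gcn-1 on the same strand, shared a summit 213 bp upstream of mir-229. Its signal was 340 in the conservative list, 201 in replicate 1 and 139 in replicate 2. The fifth gene with the seed AUGACAC, mir-63 on chromosome X, lies alone and was unmarked.

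Of 18 clusters of more than 1 gene, 5 were marked, and in each of these every gene was: mir-35 to mir-41, mir-42 to mir-44, the mir-229 cluster, mir-86 with mir-8211, and the mir-54 cluster. No gene of the other 13 clusters was marked. Windows of neighbouring genes in a cluster overlap, so its genes are often marked together by construction. The overlap is only partial between the first and last genes of longer clusters. With 500 bp upstream, mir-41, mir-44, mir-56, mir-65 and mir-66 were no longer marked, while other genes of their clusters were. Among the 209 single genes 39 were marked (18.7%). Among seeds, 16 were shared by at least 3 genes. The mir-35 seed was the only one of these with every gene marked, and 4 had none.

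**Figure D4:**
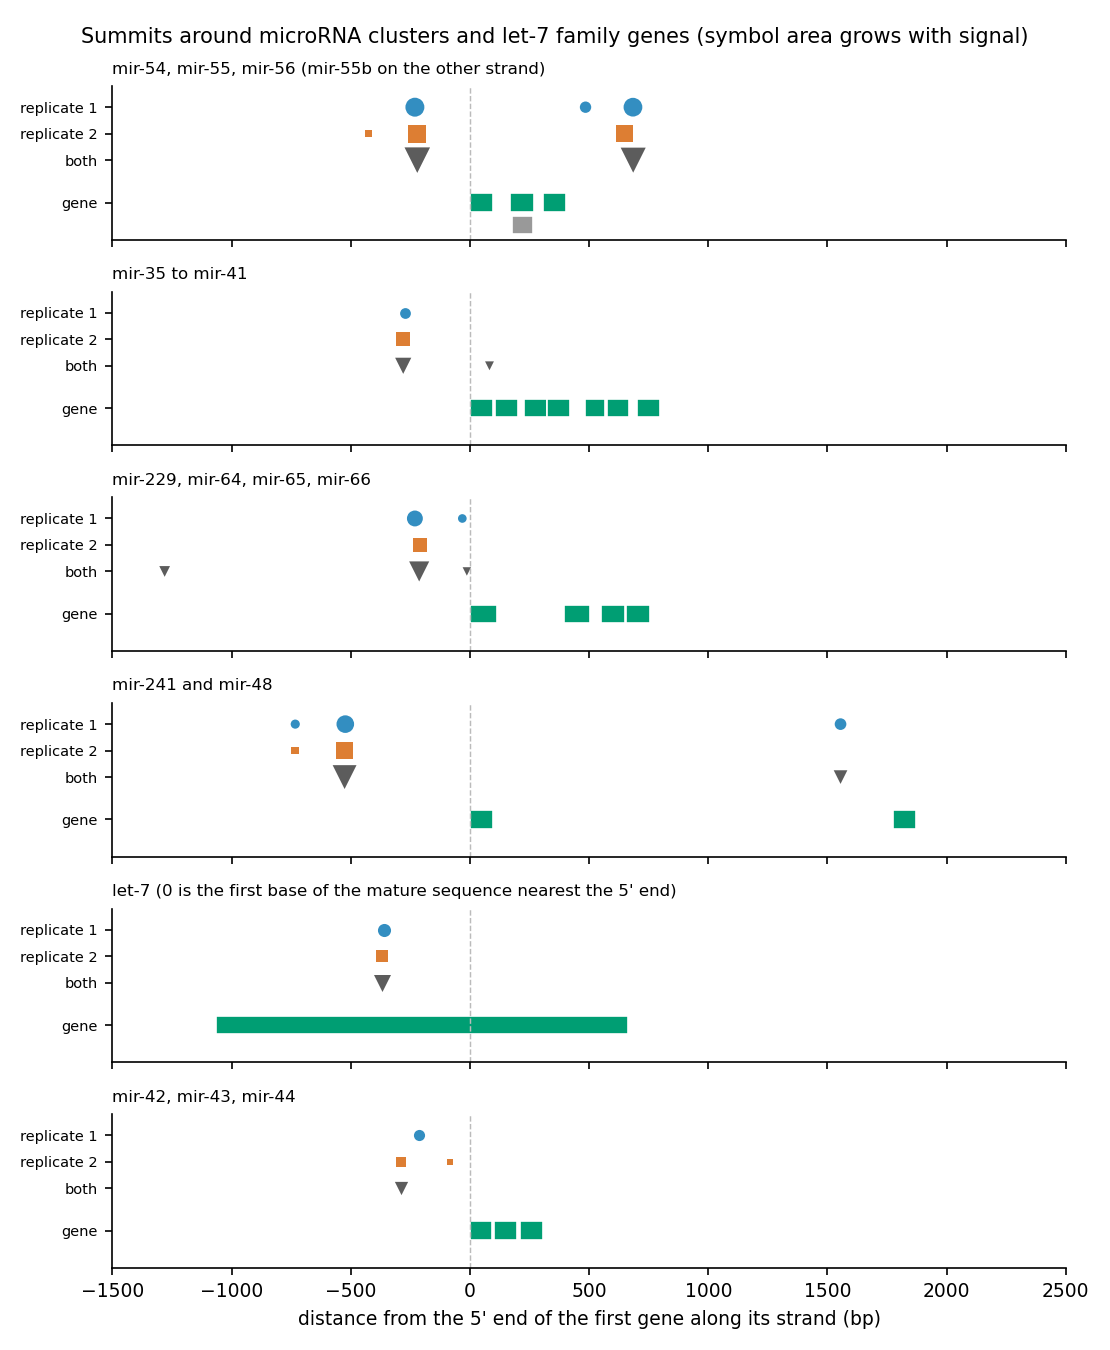
Summits around 6 loci, by distance in bp along the strand of the first gene from its 5' end (for let-7, from the mature sequence), in the own lists of replicate 1 and replicate 2 and in the conservative list; symbol area grows with signal, green bars are microRNA genes on that strand and grey bars those on the other. The shared summits lie upstream of the first gene, at 221 bp for mir-54, 280 bp for mir-35, 213 bp for mir-229 and 290 bp for mir-42.

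Among 8 microRNAs known from neurons or glia, 3 were marked (37.5%, interval 13.7 to 69.4, beside 22.2% of all microRNA genes). On chromosome I, mir-71, which acts in neurons and promotes long life, had a signal of 364 in the conservative list, 183 in replicate 1 and 179 in replicate 2, with a summit 327 bp upstream. It lies in ppfr-1, as does mir-2, which had its own summit 319 bp upstream, with 234 in the conservative list, 147 in replicate 1 and 96 in replicate 2. The mir-124 gene, expressed in sensory neurons and lying in trpa-1, had 145 in the conservative list, 85.5 in replicate 1 and 64.6 in replicate 2. The third was mir-273, with 87.1 in the conservative list and no summit in either own thresholded list. The neuronal asymmetry gene lsy-6 was unmarked, with the nearest summit 30463 bp away, and the glial mir-228 had its nearest at 21817 bp upstream.

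Of 9 microRNAs known from ageing and stress 5 were marked (55.6%, interval 26.7 to 81.1, beside 22.2% of all microRNA genes). They include mir-71, lin-4 and mir-80, and all 5 were marked in both own lists. The other marked members, mir-239a and mir-239b, rest on 1 shared summit, so the interval over genes is too narrow. That summit had a signal of 169 in the conservative list, 113 in replicate 1 and 77.5 in replicate 2. It lay 622 bp upstream of mir-239a and 424 bp upstream of mir-239b. The stress gene mir-34 was unmarked, with a summit of 267 outside the window, 1825 bp upstream. The muscle microRNA mir-1 was marked in the conservative list (signal 100, 468 bp upstream) and in replicate 1 (60.3), and not in the own thresholded list of replicate 2. None of 5 microRNAs known from intestine or epidermis was marked (0 of 5, interval to 43.4%, which includes the 22.2% of all microRNA genes), and for one of them, the intestinal mir-60, a summit of 339 lay 2825 bp upstream.

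The remaining strong members carried seeds outside these families. The mir-8192 gene lies in flcn-1, and its peak, 9 bp inside the row, had 426 in the conservative list, 222 in replicate 1 and 205 in replicate 2. The mir-87 peak, 245 bp upstream and inside kup-1, had 295 in the conservative list, 173 in replicate 1 and 128 in replicate 2. The mir-90 peak, 365 bp upstream and inside K01F9.2, had 284 in the conservative list, 159 in replicate 1 and 128 in replicate 2. Both lay within host genes on the same strand.

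Other marked genes found in all 3 lists had signals of 122 to 251 in the conservative list. The highest was mir-8209 (251, with 145 in replicate 1 and 103 in replicate 2), then mir-86 and mir-8211 (222, with 123 and 102) and mir-354 (200, with 108 and 93.2). Below 200 came mir-4930 (192), mir-8212 (182), mir-4935 (161) and mir-1833 (153), and mir-50, within tln-1, was lowest (122).

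The remaining genes were divided by list. There were 6 genes marked in an own thresholded list but not in the conservative list. One of these, mir-8186-2 near an end of chromosome II, was marked in both, with 163 in replicate 1 (rank 429) at 345 bp upstream and 102 in replicate 2 (rank 1043) at 353 bp upstream, and in neither of the lists made from both replicates. The other 5 were mir-353 and mir-46 in replicate 2 (48 and 54.7) and mir-51, mir-81 and mir-5592-2 in replicate 1 (127, 99.8 and 63.1). In the longer ranked lists 95 genes were marked in replicate 1 (36.4%, against 27.2% of other genes) and 93 in replicate 2 (35.6%, against 28.4%), and 84 in both (32.2%, against 24.3%). Of the genes in no thresholded list, 26 were in both ranked lists and 14 in only 1 of them, and no list marked the last 157 genes (60.2%).

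Marks were spread unevenly over genomic context. Of 152 microRNA genes outside protein-coding genes 19 were marked (12.5%, interval 8.15 to 18.7). Inside a protein-coding gene on the same strand it was 26 of 76 (34.2%, 24.5 to 45.4), and inside one on the other strand 13 of 33 (39.4%, 24.7 to 56.3). Of those 13, the 7 genes mir-35 to mir-41 shared 1 peak and mir-54 to mir-56 another, so intervals over genes are too narrow there. The same-strand genes include the mir-229 cluster, whose genes also shared 1 peak. The ncRNA class gave 16.3%, 15.7% and 15.6% in the same 3 settings and tRNA genes 18.2%, 20.6% and 25.2%. The snoRNA genes gave 25%, 32.1% and 15.8%, so their same-strand share was near that of microRNA genes and their other-strand share was lower. The other-strand share of microRNA genes counts the shared peaks once per gene, so that difference cannot be read as one between classes. For 52 of the 58 marked genes, the strongest summit was in no promoter window of a protein-coding gene. The 6 exceptions were let-7, mir-354, mir-271, mir-4933, mir-4936 and mir-5546. At these 6, a peak of the microRNA gene and one of the protein-coding gene cannot be told apart, nor can they be for a microRNA gene within a host.

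By chromosome, the marked share of microRNA genes was highest on III (11 of 27, 40.7%, against 22.3% of other genes there) and II (17 of 49, 34.7%, against 19%), where mir-35 to mir-44 make up 10 of the 17. It was 27.3% on I, against 23.2% of other genes. On IV it was 14%, against 4.39%, and on V 14.3%, against 12.3%. Over this window, which takes in gene bodies of unlike length, it was lower than that of other genes only on X (10 of 74, 13.5%, against 18.3%). The mir-54 cluster, with the strongest summit, lies there. In the 1000 bp upstream alone, the shares on X were close, at 10.8% of microRNA genes and 10.1% of protein-coding genes. On IV those upstream shares were 14% and 6.37%.

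Upstream GC content moved with the marks. For each gene the highest GC content of any 101 bp stretch in the upstream 1000 bp was taken. It averaged 63.6% ± 4.46 (SD) in the 50 microRNA genes with an upstream summit and 51.8% ± 6.15 in the 211 without. Protein-coding genes gave 60.9% ± 5.11 with an upstream summit and 50.1% ± 5.91 without. The part of GC content in the placement of peaks was not tested.

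For a gene with an upstream summit, the stretch around that summit is usually among those measured. Summits in microRNA windows averaged 57.1% GC, so genes with a low value have few summits partly by construction. No microRNA gene whose richest stretch was below 50% GC had an upstream summit (0 of 84). The largest group among them, 45 to 50% GC, had 0 of 52, for which the interval reaches 6.88%, against 0.302% of protein-coding genes. At 60 to 65% GC, 21 of 40 microRNA genes did (52.5%, interval 37.5 to 67.1), against 38.4% of protein-coding genes (35.7 to 41). At 65% GC or more it was 21 of 24 (87.5%, 69 to 95.7), against 63.4% (59.1 to 67.5). At 55 to 60% GC the order was the other way, with 10.2% of microRNA genes (4.44 to 21.8) against 15.1% of protein-coding genes (13.9 to 16.4). In the highest group the genes were not independent, since clustered genes shared a peak. Counted by the first gene of each cluster or single gene, a count chosen after seeing the data, it was 12 of 15 (80%, 54.8 to 93), an interval that overlapped that of protein-coding genes. In the 60 to 65% group that count was 16 of 34 (47.1%, 31.5 to 63.3). Around the first genes with an upstream summit, mean GC content was 51.2% at 250 bp upstream, against 36.7% at the same distance for first genes without one.

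**Figure D5:**
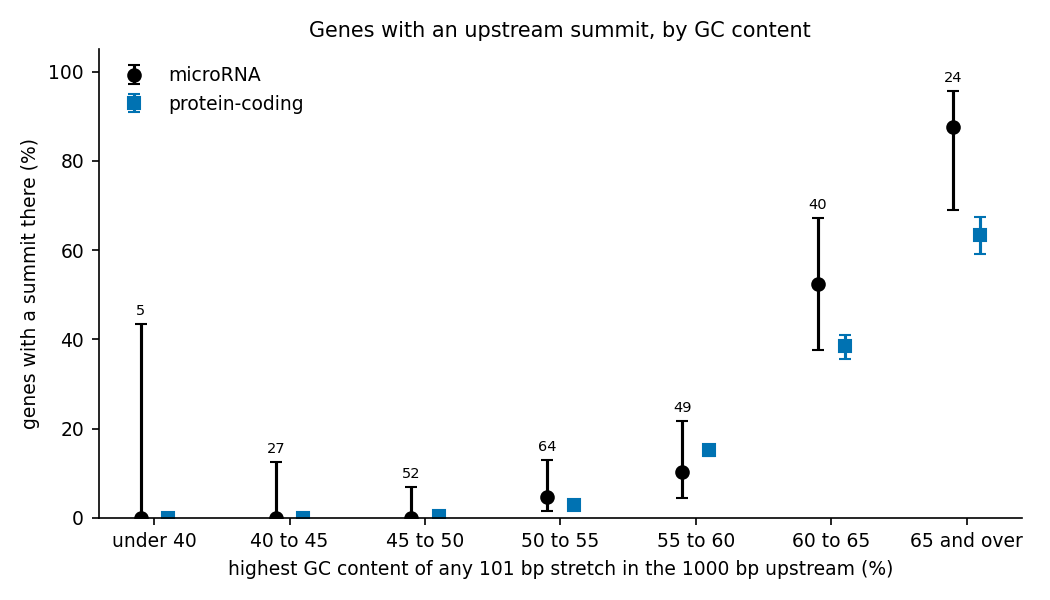
Percentage of microRNA genes (circles, with their number above) and protein-coding genes (squares) with a summit in the 1000 bp upstream, by the highest GC content of any 101 bp stretch there, with 95% Wilson intervals. Both rise with GC content, to 87.5% of microRNA genes and 63.4% of protein-coding genes at 65% and over.

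Within 50 bp of the summit, GC content averaged 57.1% ± 6.09 at the 52 summits in microRNA windows and 55.1% ± 7 at the 7033 other summits (SD). A few short motifs were searched on both strands of these 101 bp. GAGAGAGA was found at 5 of the 52 (9.62%, interval 4.18 to 20.6) against 3.98% of other summits, among them those of mir-58a, where it reads TCTCTCTC in the stretch printed above, mir-90 and mir-239a. CAGCTG was found at 1 (1.92%, against 6.23%), CACGTG at 2 (3.85%, against 3.81%) and TAATTA, the core of many homeodomain sites, at none, against 0.697%. The interval for GAGAGAGA began just above the share of other summits, those of the other motifs included it, and for TAATTA it reached 6.88%.

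Protein genes of the microRNA pathway had 6 of 16 promoter windows with a summit (37.5%, interval 18.5 to 61.4, against 8.82% of all protein-coding genes). The list was written with earlier results of these data known. The strongest was nhl-2, a cofactor of the silencing complex, with a signal of 749, followed by ain-1, a GW182 protein that binds the Argonautes, with 552. The others were cgh-1, an RNA helicase (224), xrn-2, an exonuclease that degrades microRNAs (218), vig-1, a component of the silencing complex (205), and alg-5, an Argonaute (135). The main microRNA Argonautes alg-1 and alg-2, dcr-1 (Dicer), drsh-1 (Drosha) and pash-1 (Pasha) had none, in the conservative list or in either own list. The nuclear export gene xpo-1 had a summit in both own lists and none in the conservative list, so 7 of the 16 were marked in both own lists. In the 1000 bp upstream alone, 4.1% of all protein-coding genes were marked in both own lists. That window leaves out the 200 bp past the 5' end, so the 2 counts are not over like windows. Of 16 known targets, 4 had a summit in the promoter window (25%, interval 10.2 to 49.5, against 8.82% of all protein-coding genes). They were nhl-2 again, the lin-4 target lin-14 (285), the lsy-6 target cog-1 (129) and dbl-1 (90.4). The dbl-1 window had no summit in either own list, so 3 of the 16 were marked in both own lists. The let-7 targets lin-41, hbl-1 and daf-12 had none.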

How the data were processed

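ChIP-seq peaks of zfh-2::GFP were compared with microRNA gene positions in 2 replicates of 1 group. Per the labels, chromatin was sonicated and the deposited peak lists are in build ce11. The aligner, caller and control were not given in the sources used here. Each deposited peak carries a score, at least 830 in the authors' conservative list, and a signal on a scale that the authors' files do not describe, so signals were set beside each other within a list and otherwise given as values. The deposited ranked lists also hold −log10 values of reproducibility, which were not used.

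A summit was a peak's start plus its listed offset. Windows ran from 1000 bp upstream of the 5' end to the 3' end, in Ensembl release 115 of WBcel235, and 0 peaks ended beyond a chromosome of that reference. Mature positions came from RefSeq, on the same build. Shares carry 95% Wilson intervals, which cover counting of genes only, and neighbouring genes can share a peak. Counting was tested on simulated data. Genes named were all those marked in the conservative and both own thresholded lists, the 15 strongest and the members of 11 lists of microRNA families and pathway genes, with hosts or neighbours. A few others, among them the genes in only some lists, and all distances of unmarked genes were chosen after their values were seen. The members and lists were chosen with earlier results of these data known. Alternatives covered upstream length, peak list, replicate, peak strength, overlap, merged peaks and annotation. The tools were pandas 2.3.3, NumPy 2.4.6 and matplotlib 3.10.9, under Python 3.11.15.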

Additional observations from a re-analysis of the deposited data

How the results depend on the processing

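Of the 261 microRNA genes 58 were marked, as were 44 of 227 clusters or single genes, 12.5% of genes outside protein-coding genes, and 43 genes in both own lists. With the gene body alone these fell to 10 genes, 10 clusters, 2.63% and 5 genes. With windows clear of protein-coding genes there were 16 genes of 94 and 14 clusters of 79 (17% and 17.7%), fewer because fewer genes entered. The ranked list of replicate 1 gave 95 genes, 79 clusters and 23.7%, and that of replicate 2 gave 93 genes, 77 clusters and 25.7%. With 1 replicate left out, the counts were 47 to 53 genes, 33 to 39 clusters and 9.21 to 9.87%. Replicate 2 alone kept 44 of the 58 genes and replicate 1 alone kept 49. A window of 500 bp kept 47 and one of 2000 bp added 10, among them mir-34 and mir-795. The other pooled list lost mir-1 alone, and 1 summit per merged region lost mir-4933 alone. No paired analysis was possible because there was 1 group. Depth is unknown, so a gene without a listed peak was not shown to lack binding.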

Other observations

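MicroRNA gene numbers follow the order of naming, and marks moved with them. This split was chosen after the values were seen. Of 119 genes with a number under 400, counting let-7, lin-4 and lsy-6, 40 were marked (33.6%, interval 25.8 to 42.5). Of 142 genes with a number of 400 or above, 18 were marked (12.7%, 8.17 to 19.1). In both own lists it was 29.4% of the lower-numbered genes and 5.63% of the higher-numbered ones. Inside a protein-coding gene on the same strand the shares were 56.7% and 19.6%, and outside protein-coding genes 18.1% and 7.5%. The richest upstream stretch averaged 56.6% GC in the lower-numbered genes and 51.9% in the higher-numbered ones, and the part of GC content in this difference was not tested. The strongest summit was at a median of −390 bp in the 40 marked lower-numbered genes and −140 bp in the 18 others. The lower-numbered genes include the marked clusters that begin with mir-35, mir-42, mir-229 and mir-54. Genes of a cluster share a summit, and those further along it lie farther from that summit. The shares, intervals and medians therefore count some peaks more than once.

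With 2000 bp upstream, the genes added were mir-34, mir-72, mir-235, mir-266, mir-353, mir-795, mir-1830, mir-2215, mir-2216 and mir-8190.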
